A study of Mus musculus with 2 samples.

Results

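Type 1 conventional dendritic cells (cDC1) made up 99 of the 25814 cells kept from lenvatinib-resistant mouse liver tumors, 54 of 14201 under lenvatinib alone and 45 of 11613 under lenvatinib with palbociclib (combo). They were chosen by their unique molecular identifiers (UMIs, each standing for 1 captured transcript). A cell was a member if it held at least 2 UMIs of Xcr1 and Clec9a together, at least 5 of H2-Ab1, at most 1 of Cd3d, Cd3e and Cd3g together, and none of Cd79a or Siglech. The rule thus used measured values, and the level of these genes in the members is a description, not a finding. A member was called cycling if it held a UMI of at least 2 of the 4 genes Mki67, Top2a, Birc5 and Cenpf.

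The tumors arose in wild-type male C57BL/6J mice after hydrodynamic tail vein injection of plasmids that supply MYC, a guide RNA against Trp53 and the Sleeping Beauty transposase, so both groups carry the Trp53KO/MYCOE liver cancer. Both groups had also been given lenvatinib, an inhibitor of receptor tyrosine kinases, until the tumors resisted it, and both stayed on it. The combo group received in addition palbociclib, an inhibitor of the cell cycle kinases CDK4 and CDK6. Live CD45+ cells were sorted from the tumors and sequenced with the 10x Chromium 3′ method, as 1 library for each group, and the number of mice behind a library is not stated. With 1 library a group there is no replicate check. No test was run, the library and the treatment cannot be told apart, and every 95% interval below covers counting error only (exact Poisson for levels, Clopper-Pearson for shares).

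cDC1 are the dendritic cells that specialise in taking up material from dying cells and presenting it on MHC class I to CD8+ T cells, which is called cross-presentation. They depend on the transcription factors IRF8 and BATF3 and on the growth factor receptor FLT3, they bind the T cell and NK cell chemokine XCL1 through XCR1, and they recognise dead cells through CLEC9A. In tumors they are known as a rare population that also supplies chemokines such as CXCL9 and the cytokine IL-12. CDK4 and CDK6 with the D-type cyclins act on RB1 at the entry into S phase, the step that palbociclib inhibits.

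The share of cDC1 among all cells was 0.380% (95% interval 0.286 to 0.496) under lenvatinib and 0.387% (0.283 to 0.518) under combo. Their ratio was 1.02, with bounds from 0.570 to 1.81, so no difference in frequency can be read from them. The bounds of a ratio of shares set opposite ends of both shares' intervals against each other, so they are wider than a 95% interval. Type 2 conventional dendritic cells (cDC2), chosen by their own markers and used here for comparison, numbered 64 and 48 cells, or 0.451% and 0.413%. Members were deeply sequenced, with 1163, 17607 and 37773 UMIs per cell (lowest, median, highest) under lenvatinib and 3733, 20960 and 38758 under combo. The median over all cells kept was 5541 and 5754 UMIs. No member was among the 4.46% and 2.76% of cells that the doublet caller marked. The libraries shared 49 cell barcodes, of which 1 belonged to a member.

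Within the members, Xcr1 (chr9:123852315-123862029, mm10, minus strand) was read together with Clec9a (chr6:129408862-129424763, plus strand) in 37 of 54 cells under lenvatinib and in 28 of 45 under combo. Clec9a without Xcr1 was read in 13 and 15 cells, and Xcr1 without Clec9a in 4 and 2. Per cell, Xcr1 gave 0, 3.5 and 28 UMIs (lowest, median, highest) under lenvatinib and 0, 1 and 22 under combo, and Clec9a gave 0, 2.5 and 9 against 0, 2 and 9. Levels below are the UMIs of a gene divided by all UMIs of the members of a library and scaled to 1000000 (CPM). Xcr1 stood at 266 CPM (235 to 299) under lenvatinib and 142 (119 to 168) under combo, while Clec9a stood at 159 (136 to 186) and 124 (103 to 149). Both were at 0 in the cDC2 because the rule for cDC2 allowed no UMI of either gene. The Xcr1 ligand gene Xcl1 was read in T cells at 599 and 478 CPM.

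The cells close to the cutoff were less clearly of this type. Under lenvatinib, the 28 cells that met every other condition but held 1 UMI of Xcr1 and Clec9a had Irf8 at 821 CPM and Naaa at 356 CPM, the 11 members with 2 UMIs had 1177 and 562 CPM, and the 36 members with 4 or more had 1993 and 1201 CPM. Under combo, Irf8 stood at 1202 CPM in the 17 cells with 1 UMI, at 1511 CPM in the 15 members with 2 and at 1859 CPM in the 23 with 4 or more. The cDC2 gene Cd209a, a lectin receptor, was at 132 CPM in the lenvatinib members with 2 UMIs and at 0 in those with 4 or more. The counts of genes, the medians of 17 gene lists and the ratios of the genes with the largest differences were for this reason repeated on the 36 and 23 members with at least 4 UMIs of Xcr1 and Clec9a, called strict members below.

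Genes that the rule did not name also included the defining genes of cDC1. Cst3, the protease inhibitor cystatin C that conventional dendritic cells make in large amounts, was read in every member at 16291 CPM under lenvatinib and 15829.7 CPM under combo, against 3448 and 2747 CPM in cDC2. Naaa, a lysosomal amidase typical of cDC1, stood at 1109 and 915 CPM (176 and 162 in cDC2), and Irf8 stood at 1854 and 1715 CPM. The endosomal receptor for double-stranded RNA, Tlr3, was at 145 and 135 CPM and gave 1 and 0 UMIs in all cDC2. Batf3 was at 214 and 296 CPM, against 42.0 and 96.6 CPM in cDC2, and Wdfy4, which cross-presentation requires, was at 635 and 398 CPM. Flt3 (chr5:147330741-147400489, minus strand) was read in 85.2% and 82.2% of members. After each cell was thinned to 5000 UMIs, it was read in 39.6% and 47.7% of them, against 5.71% and 1.85% of B cells. These B cell shares, as those below, cover only the 105 and 108 B cells with at least 5000 UMIs. The other 364 and 435 were left out, and the median over all B cells was 3366 and 3484 UMIs.

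The genes with the highest ratio of members to all other cells were, in order, Xcr1, Tlr3, Ifi205, Gcsam, Sept3, Tspan33, Anpep, Dbn1, Batf3, Clec9a, Cxcl9 and Cst3. Ifi205, an interferon-inducible sensor family gene, was at 602 and 516 CPM. The plot of identity genes by cell type shows these levels side by side.

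**Figure D1:**
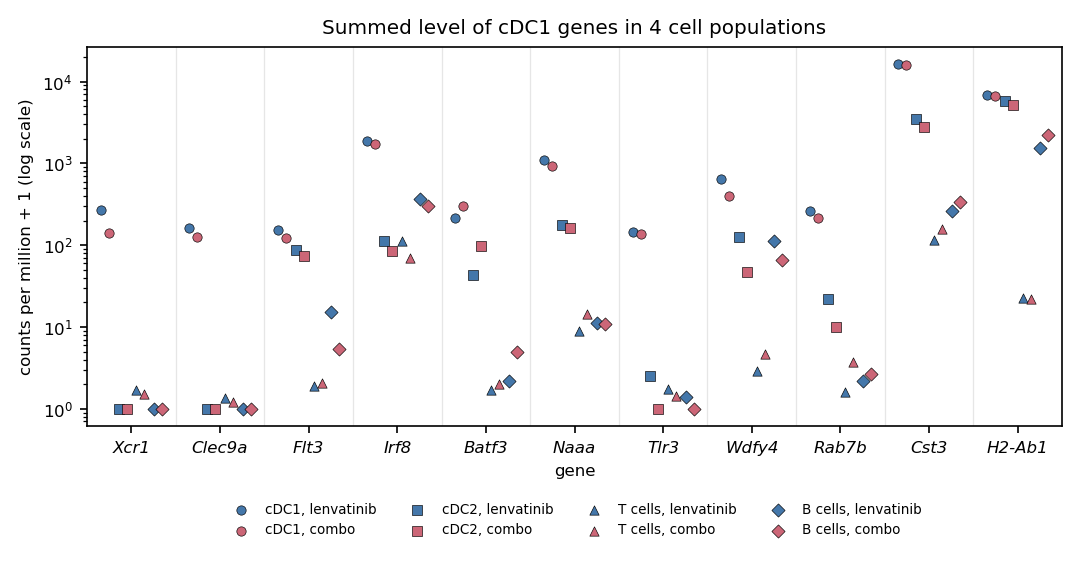
Level (CPM plus 1, log axis) of 11 genes in cDC1, cDC2, T cells and B cells of each library, 1 point per library. Xcr1 lay at 266 and 142 CPM in cDC1, and Cst3 lay at 16291 and 15829.7 CPM. The rules for cDC2 and B cells allowed no UMI of Xcr1 or Clec9a, and that for T cells at most 1 of H2-Ab1, so those points were fixed by the choice of cells.

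Genes of other cell types were low in the members, with the exception of neutrophil genes under combo. None of the 9 T cell genes that the rule did not limit reached 25 CPM, and together they came to 94.1 and 62.1 CPM in the members against 3559 and 3767 CPM in T cells. The B cell gene Pax5 was at 0. The immunoglobulin genes Igkc (186 and 317 CPM) and Ighm (171 and 153 CPM) were read, and the 9 B cell genes together came to 363 and 476 CPM in the members and 459 and 454 CPM in T cells. Hepatocyte and red cell genes summed to 10.7 and 7.25 CPM. The macrophage genes Clec4f and Vsig4 were at 0, C1qa gave 1 and 2 UMIs in all, and the shared myeloid gene Lyz2, lysozyme, was at 176 and 405 CPM. Of the NK cell genes, Gzma stood at 28.2 and 70.4 CPM, with 80.9% of its combo UMIs in 1 cell.

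Neutrophil genes set the libraries apart in every cell type examined. Summed over the 12 genes of the list, members held 271 CPM under lenvatinib and 3391 under combo, cDC2 413 and 3736, T cells 1663 and 15665, and B cells 1547 and 16924. S100a8, a subunit of the calcium-binding protein calprotectin, gave 0, 1 and 15 UMIs per member (lowest, median, highest) under lenvatinib and 4, 12 and 891 under combo. At 5000 UMIs it was read in 30.2% and 100% of members and in 49.5% and 95.4% of B cells, so it is not read as expression by cDC1. One combo member held 891 of the 1453 S100a8 UMIs and 91 of the 98 UMIs of Stfa1, a stefin of neutrophils.

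Cycling members were frequent in both libraries. Before thinning, 25 of 54 members (46.3%, 32.6 to 60.4) were cycling under lenvatinib and 14 of 45 (31.1%, 18.2 to 46.7) under combo. At 5000 UMIs per cell the shares were 37.7% (20 of 53, 24.8 to 52.1) and 22.7% (10 of 44, 11.5 to 37.8), leaving out 1 shallower member of each library. The ratio of the thinned shares was 0.602, and its bounds, from 0.2202 to 1.53, include no difference. In 20 repeat draws of the thinning the share ran from 30.2% to 37.7% under lenvatinib and from 18.2% to 27.3% under combo. Among strict members, 13 of 36 and 7 of 22 cells were cycling, a ratio of 0.881.

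The other cell types had lower cycling shares in each library, although the interval of B cells under lenvatinib overlapped that of cDC1. At the same depth, 6 of 52 cDC2 (11.5%) were cycling under lenvatinib and 0 of 44 under combo (exact interval up to 8.04%). T cells went from 12.9% to 3.74%, a ratio of 0.290 (0.221 to 0.377). B cells went from 25.7% to 3.70%, a ratio of 0.144 (0.0290 to 0.521). Thinning left out 12 and 4 cDC2, 2164 and 1983 T cells and 364 and 435 B cells. Before thinning the shares were 15.6% and 10.4% in cDC2, 13.1% and 3.54% in T cells and 8.10% and 1.29% in B cells. The cDC1 interval overlaps those of both, so the data do not separate the cDC1 ratio from theirs. The single genes of the rule, which define cycling, gave the same order in the members. Mki67, a nuclear protein of dividing cells, was read in 22 of 53 and 12 of 44 thinned members. Top2a, which untangles DNA, was read in 18 and 10, Birc5 in 15 and 11, and Cenpf in 10 and 6. Cell cycle genes outside the rule were closer: Ube2c was read in 20.8% and 22.7% of thinned members, Mcm6 in 32.1% and 31.8% and Pcna in 56.6% and 52.3%.

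**Figure D2:**
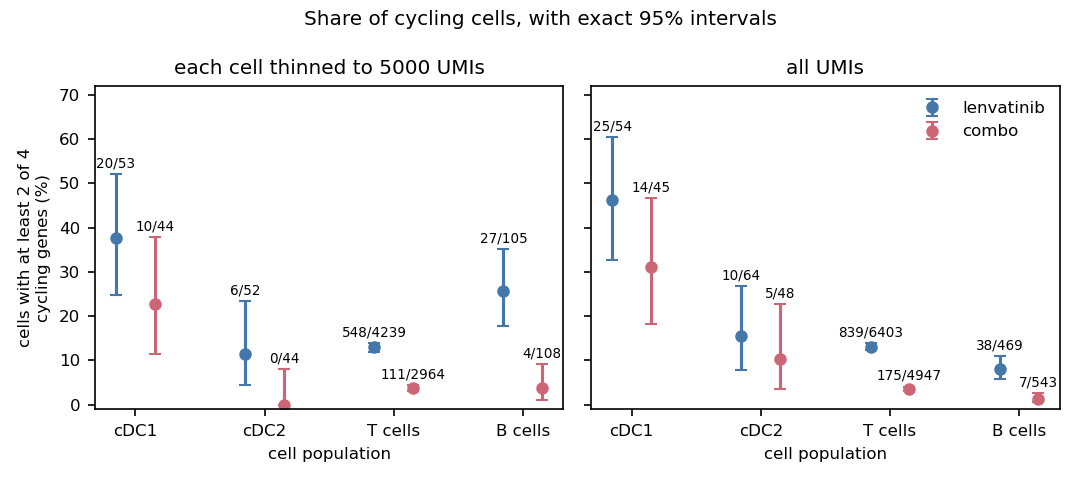
Share of cycling cells (%) in cDC1, cDC2, T cells and B cells of both libraries with exact 95% intervals (counting error only), at 5000 UMIs per cell on the left and with all UMIs on the right. The cDC1 shares were 37.7% and 22.7% after thinning, and their intervals overlapped, while those of T cells (12.9% and 3.74%) did not.

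The split by cycling separated members by replication and mitosis genes and less by identity genes. In the pooled cycling members, 994 of 5273 genes with at least 25 CPM in either set (18.9%) were at least 1.5-fold higher than in the others under lenvatinib, and 1092 of 5066 (21.6%) under combo. Because the rule made the split, the counts of the cell cycle lists are descriptions. All 31 measured genes of the G2 and mitosis list were at least 1.5-fold higher under lenvatinib and all 29 under combo, as were 8 of 10 and 12 of 12 histone genes and 19 of 24 and 16 of 25 S phase genes. Hmgb2, a chromatin protein of dividing cells, was at 364 CPM in members that were not cycling and 2615 in cycling members under lenvatinib, and at 370 and 2894 under combo. Rrm2, the regulated subunit of ribonucleotide reductase, went from 0 to 73.1 and from 0 to 92.2 CPM. The linker histone gene Hist1h1b went from 21.9 to 192 CPM and from 22.2 to 445 CPM.

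Most identity genes lay within 1.5-fold between both sets. Irf8 was at 1890.0 CPM in members that were not cycling and 1825 in cycling ones under lenvatinib, and at 1653 and 1809 under combo. Xcr1 was at 294 CPM in members that were not cycling and 244 in cycling ones under lenvatinib, and at 135 and 153 under combo. Over all genes, 768 (14.6%) were at least 1.5-fold lower in cycling members under lenvatinib and 537 (10.6%) under combo. Of 24 identity genes, 0 were higher and 3 lower by 1.5-fold in cycling members under lenvatinib, and of 23 under combo 5 were higher and 0 lower. Those 5 (21.7%) were near the 21.6% of all genes. Cd74, the invariant chain that escorts MHC class II, was lower in cycling members, at 10209 against 14129 CPM and at 12033 against 15637 CPM. Cycling members were also deeper, with a median of 22676 against 15018 UMIs and of 26726 against 19852. Of the interferon-stimulated genes, 15 of 16 measured under lenvatinib were at least 1.5-fold lower in the cycling members, and 3 of 6 under combo.

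Between the treatments, 5074 genes reached 25 CPM in members of either library. Of these, 382 (7.53%) were at least 1.5-fold higher under combo and 905 (17.8%) at least 1.5-fold lower. The median log2 ratio of all 5074 genes was -0.09, and centring on it changed the split to 529 higher and 703 lower. Counts of gene lists below are to be read against those percentages, since 1.5-fold is a size and not a test. In cDC2 the same counts were 481 (9.07%) higher and 1155 (21.8%) lower of 5302 genes. The shares higher and lower were 12.6% and 24.1% in members that were not cycling, 10.3% and 15.6% in strict members, and 2.98% and 12.1% in T cells. In B cells they were 2.93% and 33.0% of 4916 genes.

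**Figure D3:**
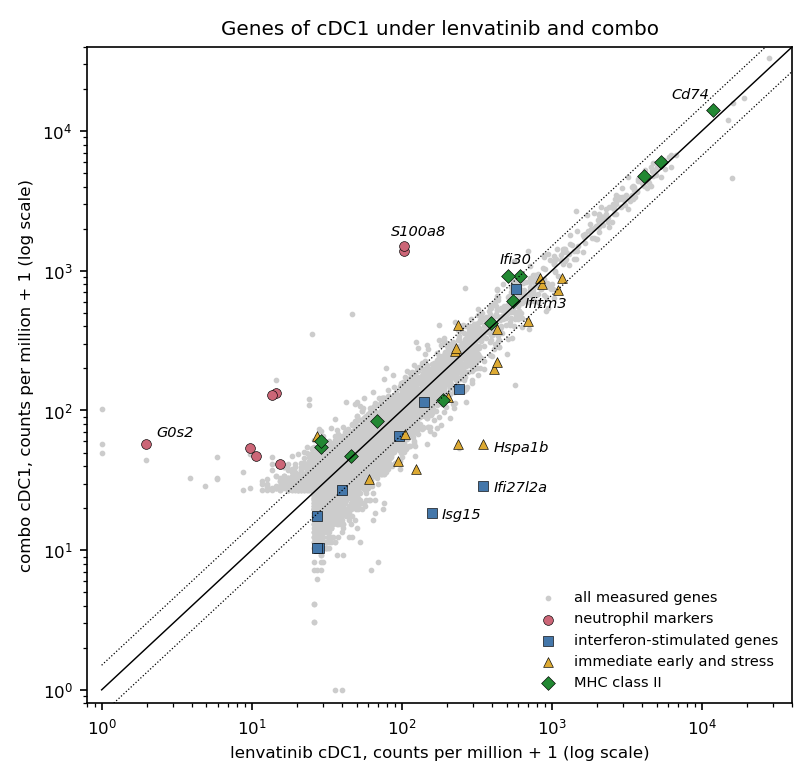
Level (CPM plus 1, log axes) of each measured gene in cDC1 under lenvatinib (horizontal) and combo (vertical), with dotted lines at a 1.5-fold difference and 4 gene lists coloured. The 8 measured neutrophil genes lay above the upper line, interferon-stimulated genes such as Isg15 (157 and 17.6 CPM) lay below the lower one, and the MHC class II genes lay mostly between them.

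Of the identity list, 24 of 25 genes were measured, and 0 were higher and 7 lower under combo, with a median log2 ratio of -0.31 (-0.16 in strict members, where 1 was higher and 4 lower). The 7 were Itgae, Zbtb46, Tlr11, Cd36, Wdfy4, Btla and Kit. Itgae encodes CD103, the integrin of tissue cDC1 that binds E-cadherin, and stood at 65.0 and 21.7 CPM. It was read in 20 of 54 members under lenvatinib and 8 of 45 under combo, and at 5000 UMIs in 18.9% and 6.82% of them, against 0.952% and 1.85% of B cells. Zbtb46, a transcription factor of conventional dendritic cells, stood at 56.3 and 26.9 CPM, and Tlr11, a receptor for profilin, at 34.9 and 18.6 CPM. Summed over the list, members held 24269 and 22724 CPM and cDC2 4696 and 3763.

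Genes of MHC class II presentation were level or higher under combo. Of 12 measured, 3 were at least 1.5-fold higher (H2-DMb2, Lgmn and Ifi30) and 1 was lower (Ciita), with a median log2 ratio of 0.23, and in strict members 4 were higher and 0 lower. Ifi30 (chr8:70762774-70766663, mm10, minus strand), a thiol reductase that opens disulfide bonds of antigens in lysosomes, was at 507 and 913 CPM. Per cell, scaled to 10000 UMIs, it gave 0, 4.27 and 31.6 (lowest, median, highest) under lenvatinib and 0.591, 7.66 and 26.0 under combo, so the medians were apart and the ranges overlapped almost wholly. In cDC2 it was at 1460 and 1714 CPM. The peptide-loading chain H2-DMb1 was at 616 and 920 CPM and its neighbour H2-DMb2 (chr17:34143307-34151555, plus strand) at 28.2 and 59.0, from 29 and 57 UMIs. Reads of these near-identical genes can be assigned to either. After thinning, H2-DMb2 was read in 13.2% and 25% of members, below the 32.4% and 50% of B cells, so these shares are not read as expression.

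The abundant class II chains were close between libraries. H2-Ab1, which the rule used, was at 6785 and 6698 CPM, H2-Aa at 5377 and 6030, H2-Eb1 at 4126 and 4780, and Cd74 at 11944 and 14219.7. Ciita, the class II transactivator, was the exception, at 186 and 118 CPM, with a log2 ratio of -0.66 (-0.36 in strict members). In cDC2, 1 of the 12 genes was higher and 4 were lower, with a median log2 ratio of 0.14. In B cells 3 were higher and 0 lower, with a median of 0.47, against a median of -0.37 over all B cell genes. Summed over the list, members held 23869 and 28256 CPM, cDC2 25908 and 29144, and B cells 10684 and 15811, so the sum was higher under combo in all of them.

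Genes of MHC class I and cross-presentation were lower more than higher. Of 25 measured, 0 were higher and 5 lower by 1.5-fold, a share near the 17.8% of all genes, and the median was -0.19. The 5 were Nlrc5, H2-Q7, Erap1, Canx and Wdfy4. Nlrc5, the class I transactivator, was at 26.2 and 6.21 CPM (27 and 6 UMIs), and Erap1, which trims peptides in the endoplasmic reticulum, at 61.1 and 31.1 CPM. The class I chains H2-K1 (982 and 737 CPM) and H2-D1 (729 and 840 CPM) lay on opposite sides of no difference, and B2m, their light chain, was at 1014 and 744 CPM. H2-Q7 (146 and 57.0 CPM) belongs to a family of near-identical genes among which reads can be split. The peptide transporter gene Tap1 was at 195 and 190 CPM. The immunoproteasome subunit gene Psmb8 (chr17:34197721-34201454, plus strand) had the highest ratio of the list, at 892 and 1305 CPM, with 0, 8.27 and 16.7 per 10000 UMIs per cell under lenvatinib and 2.68, 13.2 and 20.2 under combo.

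Interferon-stimulated genes were lower under combo, and a few cells held much of the difference. Of 10 measured, 0 were at least 1.5-fold higher and 6 were lower (Ifi27l2a, Isg15, Irgm1, Ifit2, Bst2 and Ifi47), with a median log2 ratio of -0.72. In strict members 7 were measured, 1 was higher and 3 lower, and the median was -0.29. In members that were not cycling 14 of 16 were lower, with a median of -1.48, and over all settings tried the median ran from -1.63 to -0.29. Ifitm3, a membrane protein that blocks virus entry, was on the other side at 576 and 734 CPM. The list was not lower in cDC1 alone. In cDC2, 0 of 21 measured genes were higher and 10 lower, with a median of -0.54. In T cells 1 of 17 was higher and 5 were lower, with a median of -0.43, and in B cells 2 of 8 were higher and 1 lower, with -0.24. Over all genes the median was -0.13 in cDC2, -0.19 in T cells and -0.37 in B cells. The list thus lay below the median of all genes in cDC2 and T cells but not in B cells.

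Isg15 (chr4:156199424-156200818, mm10, minus strand), a ubiquitin-like protein that is attached to other proteins, was at 157 CPM (134 to 183) under lenvatinib and 17.6 (10.3 to 28.2) under combo. Per cell it gave 0, 0 and 48 UMIs (lowest, median, highest) and 0, 0 and 5. Under lenvatinib 2 members held 48 and 37 of its 162 UMIs, and these also held 98 and 136 of the 521 UMIs of Ccl5 and 24 and 37 of the 249 of Cxcl9. One of them held 33 of the 36 Ccr7 UMIs. Isg15 was read in 46.3% and 22.2% of members, and at 5000 UMIs in 22.6% and 13.6%, against 9.52% and 3.70% of B cells. In strict members the levels were 57.3 and 20.8 CPM, a log2 ratio of -1.46 in place of -3.16. Isg15 was also lower under combo in cDC2 (143 and 60.9 CPM), T cells (86.0 and 57.1 CPM) and B cells (19.3 and 11.3 CPM).

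Ifi27l2a (chr12:103442167-103443680, minus strand), an interferon-induced mitochondrial protein gene, was at 347 CPM (312 to 385) and 28.0 CPM (18.4 to 40.7). It was less bound to single cells, with 46 UMIs in the highest lenvatinib member and 16 members above 5 UMIs, against 6 UMIs and 1 member under combo. Its log2 ratio was -3.64 in all members and -2.91 in strict members. In cDC2 it was at 1003.8 and 282 CPM. At 5000 UMIs it was read in 35.8% and 15.9% of members but in 60% and 50% of B cells, so these shares are not read as expression. Summed over the list, the median member held 919 CPM under lenvatinib and 873 under combo, while the highest held 20052 and 7496.

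The stretch before the start of transcription is shown for 3 of the lower genes because interferon-stimulated genes are bound there by STAT and IRF factors. The sequences are from RefSeq (GRCm38.p6, the mm10 build), 250 bases ending at the base before the start and written along the gene. Capitals mark matches to the letters GAAANNGAAA, those of the interferon-stimulated response element (ISRE), and in Bst2 also a match to TTCNNNGAA, those of the gamma-activated site (GAS), which overlaps it. Isg15 lies at chr4:156200819-156201068, Bst2 at chr8:71537473-71537722 and Irgm1 at chr11:48871421-48871670, all on the minus strand.
Isg15: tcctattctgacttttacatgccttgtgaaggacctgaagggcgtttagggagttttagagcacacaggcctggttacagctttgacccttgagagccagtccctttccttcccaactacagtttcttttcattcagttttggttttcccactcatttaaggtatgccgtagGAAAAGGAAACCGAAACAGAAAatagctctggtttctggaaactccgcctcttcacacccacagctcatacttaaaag
Bst2: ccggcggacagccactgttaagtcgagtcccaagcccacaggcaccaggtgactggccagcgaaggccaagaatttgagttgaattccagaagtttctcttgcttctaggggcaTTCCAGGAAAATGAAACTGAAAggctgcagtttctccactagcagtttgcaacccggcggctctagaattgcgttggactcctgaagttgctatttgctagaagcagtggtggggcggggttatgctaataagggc
Irgm1: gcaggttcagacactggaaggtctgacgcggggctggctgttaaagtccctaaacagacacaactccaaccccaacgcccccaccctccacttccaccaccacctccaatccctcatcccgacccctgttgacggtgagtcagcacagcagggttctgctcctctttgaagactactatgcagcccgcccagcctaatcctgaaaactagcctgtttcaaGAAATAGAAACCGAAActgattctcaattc
Isg15 holds 3 overlapping ISRE matches, and Bst2 and Irgm1 hold 2 each. Of the lower genes of the interferon-stimulated list in the promoter table, these 3 are the ones that held the ISRE letters, while Ifit2 and Ifi47 held none. Cxcl10, lower too but counted among the chemokines, held 1 ISRE match. On either strand, 4 of the 8 measured genes of the list found in the promoter table held the ISRE letters (Bst2, Irgm1, Isg15 and Stat2), against 978 of all 32851 promoters (2.98%). The GAS letters were in 2 of the 8 and in 2306 of all (7.02%). The 8 were counted by gene, with a match in any promoter of the gene, and the 32851 by promoter, so the shares are not strictly alike. Ifi27l2a was not matched in the table. A match of letters is a description of the sequence, not a bound site.

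Chemokine genes were also carried by few cells, only in part the same ones. Of 9 measured cytokine and chemokine genes, 1 was higher (Il18) and 3 were lower (Cxcl9, Cxcl10 and Ccl5), with a median log2 ratio of -0.23. In members that were not cycling 0 of 10 were higher and 6 lower, with a median of -1.004, and in strict members 3 of 9 were higher and 2 lower, with a median of -0.34. Cxcl9 (chr5:92321347-92328079, minus strand), which draws CXCR3+ T cells, was at 242 and 52.8 CPM. It was read in only 11 of 54 and 6 of 45 members, with a highest of 81 and 20 UMIs per cell, and the member with 81 UMIs held 13 of Isg15. Its log2 ratio was -2.19 (-1.89 in strict members). In cDC2 it was at 10.5 and 4.46 CPM. Ccl5, which draws T cells, was at 506 and 255 CPM, but without the 3 members with most UMIs in each library 193 and 161 UMIs were left, a log2 ratio of -0.17, and the median was 3 and 4 UMIs per cell. In strict members its log2 ratio was -0.47. Ccl5 was also high in members that carried NK cell genes, with 94 UMIs in a lenvatinib member that held 26 of Nkg7 and 67 in a combo member that held 32 of Nkg7 and 55 of Gzma. Without the 2 and 1 members with such genes, Ccl5 was at 438 and 191 CPM. The cytokine gene Il12b gave 1 and 2 UMIs in all members, so its level was under the limit that this depth allows.

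Of 12 measured genes of pattern recognition and uptake, 1 was higher (Myd88) and 5 were lower (Dnase1l3, Cd207, Cgas, Tlr11 and Cd36). The median log2 ratio was -0.34 but turned positive under 1 or more of the settings tried, up to 0.14. Dnase1l3, a secreted DNase that digests DNA of dead cells, was at 61.1 and 6.21 CPM, read in 9 and 3 members. Cd207, the lectin langerin, rested on 1 lenvatinib cell with 24 of its 26 UMIs, and the combo library held 3. Cgas, the sensor of cytosolic DNA, was at 37.9 and 14.5 CPM. Myd88, the adaptor of most Toll-like receptors, was at 35.9 and 71.4 CPM.

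Few costimulatory and checkpoint genes were measured. Of 7, 0 were higher and 2 were lower, Lgals9 (38.8 and 22.8 CPM), which encodes galectin-9, and Btla (99.96 and 63.2 CPM), an inhibitory receptor, with a median of -0.21. Cd86, a ligand of CD28, was at 120.3 and 105 CPM, Cd83 at 219 and 196 CPM, and Havcr2, which encodes TIM-3, at 61.1 and 74.5 CPM. Of the genes of mature dendritic cells, the migration receptor gene Ccr7 gave 36 and 0 UMIs, with 33 of the 36 in 1 member, and Fscn1, an actin-bundling protein, gave 0 and 1.

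The targets of palbociclib were read in the members of both libraries. Cdk4 was at 109 and 141 CPM and Cdk6 at 74.7 and 65.2. Of the D-type cyclins, Ccnd1 was at 435 and 314 CPM, Ccnd2 at 74.7 and 87.0, and Ccnd3 at 125 and 199. Over the 14 measured genes of the G1 and CDK4/6 list, 2 were higher (Ccnd3 and Cdkn2d) and 4 lower (Rbl1, Rb1, Cdkn1a and Mycl), with a median of -0.15 that became 0.60 in members that were not cycling. Rb1, the pocket protein that CDK4 and CDK6 phosphorylate, was at 36.9 and 15.5 CPM, and its relative Rbl1 at 34.9 and 10.4. The inhibitor genes Cdkn1a (p21) and Cdkn2d (p19) were at 115 and 71.4 CPM and at 79.6 and 126 CPM. Mycl, the MYC family member that cDC1 use, was at 86.4 and 53.8 CPM.

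S phase genes were level in cDC1 while most were lower in cDC2. Of 23 measured in cDC1, 2 were higher (Prim1 and Mcm3), 1 was lower (Rrm1), and the median was -0.08. Of 23 measured in cDC2, 0 were higher and 19 lower, with a median of -1.26, and in T cells 0 and 13 of 20, with a median of -0.64. Pcna, the sliding clamp of replication, was at 206 and 175 CPM in cDC1, and Mcm2 of the replicative helicase at 44.6 and 41.4. Of 29 G2 and mitosis genes in cDC1, 0 were higher and 7 lower (Kif20b, Kif20a, Bub1b, Kif11, Prc1, Ccna2 and Smc4), with a median of -0.35. In cDC2, 11 of 16 were lower, with a median of -2.05, and in T cells 17 of 20, with -1.60. Among 10 histone genes 3 were higher in cDC1 (Hist1h1b, Hist1h2ab and Hist1h2ae) and 0 lower, with a median of 0.17, against 7 of 9 lower in cDC2.

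The directions of these 3 lists in cDC1 turned with the choice of members. In members that were not cycling the S phase median was 0.52 and the histone median -0.62, and in strict members the mitosis median was 0.36 and the histone median 0.82. The cell types were set side by side and the difference between them was not tested.

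Immediate early and stress genes were lower under combo. Of 19 measured, 2 were higher and 11 lower, with a median of -0.64, and in strict members 8 were lower, with a median of -0.40. The heat shock genes Hspa1b and Hspa1a were at 349 and 57.0 CPM and at 238 and 57.0 CPM, with up to 119 and 32 UMIs of Hspa1b in 1 cell. These near-identical genes can share reads. At 5000 UMIs Hspa1b was read in 32.1% and 6.82% of members, against 34.6% and 13.6% of cDC2 and 7.62% and 6.48% of B cells. Its level was lower under combo in those cells too, at 185 and 31.2 CPM in cDC2 and 96.6 and 27.6 CPM in B cells. In T cells it was at 60.1 and 52.3 CPM. The transcription factor genes Egr1 (124 and 37.3 CPM), Jun (413 and 198 CPM) and Fosb (429 and 223 CPM) were also lower. Nfkbia, the inhibitor of NF-kappaB, was at 235 and 410.0 CPM and Ier3 at 26.2 and 64.2 CPM. In cDC2, 2 of 19 were higher and 9 lower, with a median of -0.55, and in T cells 3 were higher and 2 lower, with a median of 0.12.

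Metabolic genes differed little over all members, and more in those that were not cycling. Of 23 measured genes of oxidative phosphorylation, 0 passed 1.5-fold in either direction, and the median was 0.06. Of 13 glycolysis and hypoxia genes, 0 were higher and 1 was lower (Hif1a, 59.2 and 39.3 CPM), with a median of 0.27. In members that were not cycling, 5 of 23 genes of oxidative phosphorylation and 7 of 14 of glycolysis and hypoxia were higher, with medians of 0.28 and 0.56. Ldha, which makes lactate, was at 438 and 647 CPM and Aldoa at 209 and 299 CPM. Of 13 lipid and cholesterol genes, 2 were higher (Fdft1 and Fabp5) and 3 lower. Of 14 genes for survival and growth of dendritic cells, 2 were higher, Socs3 (49.5 and 114 CPM), a brake on STAT3 signalling, and Mtor (15.5 and 31.1 CPM), and 1 was lower (Stat5a, 29.1 and 17.6 CPM).

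**Figure D4:**
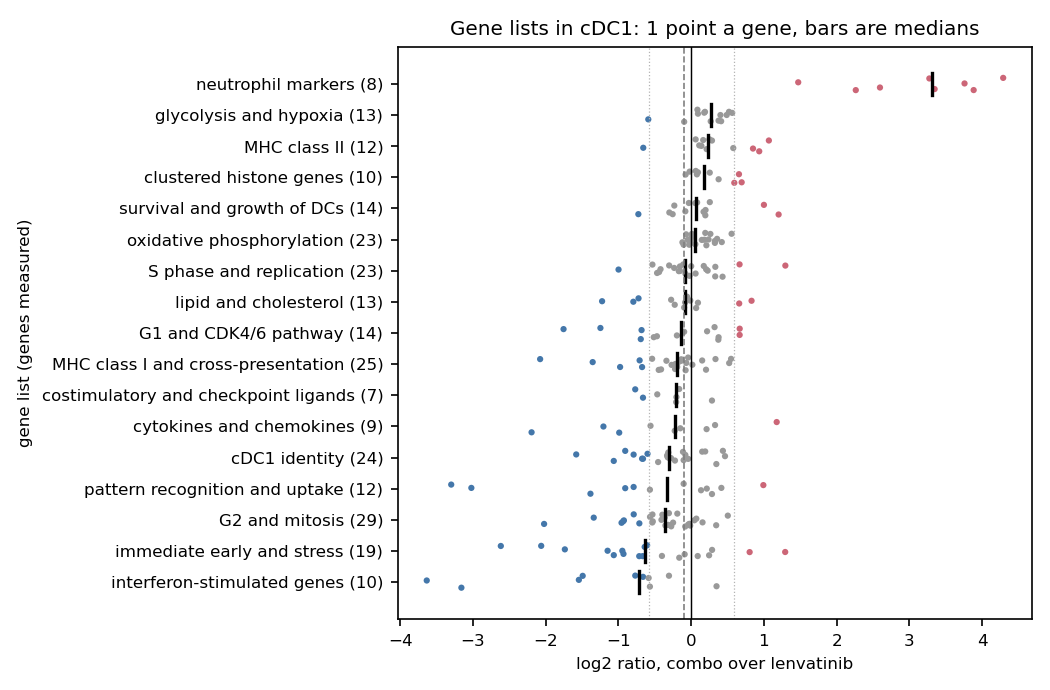
Log2 ratio of combo over lenvatinib in cDC1 for each measured gene (points) of 17 lists, with the list median as a bar, the median of all measured genes (-0.09) as a dashed line and 1.5-fold as dotted lines. The neutrophil list (median 3.31) stood apart on the right, the interferon-stimulated (-0.72) and immediate early and stress (-0.64) lists had the lowest medians, and oxidative phosphorylation (0.06) was the narrowest.

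The genes with the largest ratios were taken from those with at least 50 CPM in 1 library and a UMI in at least 10% of its members. The 12 lowest under combo were Ifi27l2a, Dnase1l3, Nedd4, Isg15, Hspa1b, H2-Q6, Cxcl9, Hspa1a, Kif20b, Ly6a, Lars2 and Nr4a3. Nedd4, a ubiquitin ligase, was at 68.9 and 7.25 CPM and was read in 26 of 54 and 5 of 45 members. At 5000 UMIs it was read in 26.4% and 4.55% of members and in 21.0% and 0.926% of B cells, so it was lower in both cell types. Lars2, a mitochondrial leucyl-tRNA synthetase, was at 570 and 151 CPM in members, and at 812 and 285 CPM in cDC2, 800 and 440 in T cells and 811 and 412 in B cells. The ribosomal RNA-overlapping gene Gm42418 took 1.58% of member UMIs under lenvatinib and 0.460% under combo, and was lower under combo in cDC2 (2.54% and 0.982%), T cells (1.70% and 1.17%) and B cells (1.75% and 1.13%) too.

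The 12 highest were Stfa1, Stfa2, G0s2, S100a8, Cxcl2, S100a9, Ifitm1, Mt1, Lcn2, Retnlg, Ngp and Ifitm6, most of them neutrophil genes. Stfa1 and Stfa2 gave 0 UMIs under lenvatinib and 98 and 55 under combo, which is at least 34.8-fold and 19.6-fold higher than a floor of 3 counts per library. The chemokine gene Cxcl2 was at 24.3 and 352 CPM, with 178 and 78 of the 340 combo UMIs in 2 members. Its share at 5000 UMIs (5.66% and 38.6%) was below that in B cells (18.1% and 61.1%), and so was that of Ifitm1 (7.55% and 31.8% against 13.3% and 38.9%), and both are read as background.

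Mt1, a metallothionein that binds zinc and copper, was read in a larger share of members than of B cells, but was higher under combo in every cell type examined. It was at 45.6 CPM (33.5 to 60.7) under lenvatinib and 487 CPM (444 to 533) under combo. Per cell it gave 0, 0 and 8 UMIs (lowest, median, highest) and 0, 5 and 49, and the 5 highest combo members, at 34 to 49 UMIs, lay above every lenvatinib member. At 5000 UMIs it was read in 15.1% and 72.7% of members, against 9.52% and 17.6% of B cells. In cDC2 it was at 251 and 667 CPM, a ratio of 2.66. Of the 24 genes, 23 kept a ratio past 1.5-fold in the same direction without the 3 members with most UMIs of that gene. Stfa1 did not, at a log2 ratio of 0.51. In strict members 24 did, but Stfa1 gave only 0 and 4 UMIs there and Stfa2 0 and 3. With a floor of 3 counts, that ratio of Stfa2 came from the library totals alone and says nothing of its level.

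**Figure D5:**
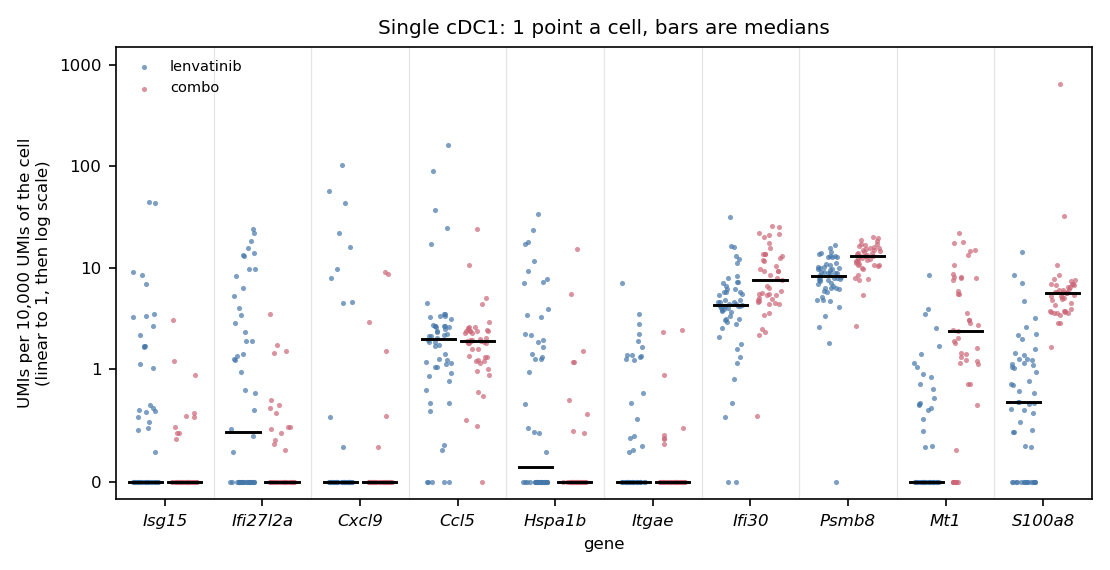
UMIs per 10000 in each cDC1 (points, symmetric log axis) for 10 genes under lenvatinib and combo, with medians as bars. Isg15 and Cxcl9 were carried by a few lenvatinib cells above a median of 0, while Ifi30 (medians 4.27 and 7.66), Psmb8 (8.27 and 13.2) and Mt1 (0 and 2.39) were shifted over many cells.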

How the data were processed

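Live CD45+ cells of liver tumors were measured as 1 10x Chromium 3′ v3 library per group. The authors deposited, for each library, a matrix of counts (UMIs per gene and cell), made with Cell Ranger from reads aligned to mm10. The submitters' processing notes name version 5.0.1 and the matrix headers 6.0.1. The deposited counts were used as they are, 32285 genes by 14509 and 11989 barcodes with 98107503 and 93583402 UMIs. Groups come from the treatment label.

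Cells with over 6000 genes or over 25% mitochondrial UMIs were left out (308 and 376, of which 0 met the member rule). Scrublet (scanpy 1.11.5, 6% doublets expected) marked doublets, which stayed in the main values. Members, gene lists and comparisons were chosen with earlier results of these data known, so none is independent of them. UMIs were summed over members of each library, divided by the total, and compared as ratios for genes with at least 25 CPM in 1 library; a sum under 3 counts was set to 3. Genes named were those of the lists past 1.5-fold, the leading members of each list, and the 12 largest ratios in each direction; some were added after their values were seen. Shares of cells with a UMI were set at 5000 UMIs per cell by seeded thinning, leaving out shallower cells. In T, B and dendritic cells alike, free RNA can add UMIs, so B cells were taken as a background. The gene annotation was GENCODE vM21 and promoter sequences were RefSeq GRCm38.p6. The summing and ratio steps were tested on simulated data. Python 3.11.15, numpy 2.4.6, scipy 1.17.1, pandas 2.3.3 and matplotlib 3.10.9 were used. Alternatives were other normalizations, filters, fold cutoffs, thinning depths and member rules. The authors' clusters were not used here. Some genes are not reported here.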

Additional observations from a re-analysis of the deposited data

Results flagged for a closer look

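In 4 genes of the lists, cDC1 and cDC2 lay at least 1.5-fold on opposite sides of no change with counting intervals that did not overlap in either cell type, each from 1 library a treatment, and the difference between the cell types was not tested. H2-DMb2, a chain of the class II peptide editor, had a log2 ratio of combo over lenvatinib of 1.07 in cDC1 and -1.52 in cDC2. Prim1, the small subunit of DNA primase, had 1.29 and -2.22. The histone genes Hist1h1b and Hist1h2ae had 0.69 and 0.59 in cDC1 and -2.40 and -2.50 in cDC2. In the cDC1 these rest on 29 and 57 UMIs for H2-DMb2, 20 and 46 for Prim1, 120 and 182 for Hist1h1b and 116 and 164 for Hist1h2ae. After thinning, H2-DMb2 was read in 13.2% and 25% of members and in 26.9% and 13.6% of cDC2. Both lay below the 32.4% and 50% of B cells, so these shares are not read as expression. Reads of H2-DMb2 can also be assigned to the near-identical H2-DMb1. The histone differences lay in the cycling members, 25 and 14 cells, with Hist1h1b at 192 and 445 CPM and Hist1h2ae at 188 and 405. In members that were not cycling they were level, at 21.9 and 22.2 CPM and at 17.5 and 17.1. Of the thinned cDC2, 6 of 52 and 0 of 44 were cycling.

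Among cells outside the members, 27 under lenvatinib and 15 under combo met every condition of the rule except that they held Siglech, a receptor of plasmacytoid dendritic cells. Most of them carried it strongly, since 24 and 9 held over 4 UMIs of it, while 1 and 5 held a single UMI. Tcf4, the transcription factor of plasmacytoid dendritic cells, stood at 2266 and 998 CPM in these cells and at 90.3 and 41.4 CPM in the members. Clec9a stood at 214 and 168 CPM and Xcr1 at 5.62 and 91.0 CPM. Naaa stood at 160 and 511 CPM.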

How the results depend on the processing

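Of the alternatives for the counts of genes past 1.5-fold, 13 gave a count within 1.5 times the main one and 7 did not. Leaving out marked doublets is among the 13 but could not change a count, because no member was marked. The same holds for the cycling share and any other value taken from members alone. Members that were not cycling gave 637 genes higher under combo in place of 382. Limiting to genes of at least 100 CPM gave 90 higher and 153 lower, a minimum of 5 CPM gave 1079 and 2083, and a 2-fold cutoff gave 96 and 268; these count fewer or more genes by construction. All 16 alternative ratios of the cDC1 share and the cycling share lay within the counting interval of the main ratio, which is wide: the ratio of cDC1 shares ran from 0.597 (rule applied after thinning to 2000 UMIs, 15 and 8 members) to 1.06, against 1.02, and so changed direction, and the ratio of cycling shares ran from 0.507 to 0.881. Of the list medians, 149 alternative values lay within the interquartile range of the list's own gene ratios from the main median and 4 lay outside; that spread is wide, and the medians of pattern recognition, G1, S phase, G2 and mitosis, histones, survival and lipid genes changed sign in at least 1 setting. Of the single genes, 18 alternative values moved beyond the counting interval and 50 did not. Cd207 turned to a log2 ratio of 0.093 without the member that held most of its UMIs, and Ccr7 to 0.093 in that setting and to 0.60 in strict members, both then resting on at most 3 counts a library. No paired analysis was possible because each group is 1 library.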

Other observations

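A few genes outside the lists were higher under combo over many members rather than in single cells, and were chosen after their values were seen. Rnh1, the ribonuclease inhibitor, was at 124 and 308 CPM, was read in 40 of 54 and 45 of 45 members, and gave a median of 2 and 6 UMIs per cell. At 5000 UMIs it was read in 52.8% and 79.5% of members, against 19.0% and 21.3% of B cells. Ncf4, a subunit of the phagocyte NADPH oxidase, was at 77.6 and 199.8 CPM and read at 5000 UMIs in 24.5% and 63.6% of members, against 33.3% and 36.1% of B cells. Cd300a, an inhibitory receptor for lipids of dying cells, was at 23.3 and 108 CPM and read in 17.0% and 40.9% of thinned members, against 1.90% and 6.48% of B cells. In cDC2 the ratio of combo over lenvatinib was 1.45 for Rnh1 and 1.47 for Ncf4, and Cd300a was at 209 and 313 CPM.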
